A study of Saccharomyces cerevisiae with 24 samples.

Results

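FIT1, FIT2 and FIT3 encode cell wall mannoproteins, and ARN1, ARN2, SIT1 and ENB1 encode siderophore transporters, of the yeast Saccharomyces cerevisiae. They are 7 of the 6304 genes with values in 12 RNA-seq and 12 ribosome profiling libraries, and they were chosen by gene name. The libraries came from cells carrying Dim1 E85Q, Dim1 D87E or wild-type Dim1 (WT), all in the CEN.PK background; Dim1 is the enzyme that dimethylates a pair of adenosines near the end of 18S rRNA. Each genotype was represented by 2 numbered strains, called isolates here (E85Q 623 and 625, D87E 887 and 888, WT 172 and 600). Each isolate was sampled after 2 h in sulfur-free medium without methionine, called starved here, and before that in log phase in the same medium with 1 mM methionine. This gave 6 groups of 2 samples per assay, and p-values measure the spread between isolates and samples of that kind.

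Siderophores are small molecules that microbes secrete to bind ferric iron. S. cerevisiae makes none, but takes up iron bound to the siderophores of other organisms. The Fit mannoproteins are attached to the cell wall through a glycosylphosphatidylinositol anchor and help to hold siderophore-bound iron at the cell surface. The transporters carry the complexes into the cell, Arn1 with ferrichromes, Arn2 with triacetylfusarinine C, Sit1 with ferrioxamine B and Enb1 with enterobactin. These genes are known targets of Aft1 and Aft2, the transcription activators of the response to low iron, which sense iron through the iron-sulfur clusters that mitochondria make from cysteine sulfur.

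Levels are given in RPKM, in which counts are scaled by gene length and by library depth, so that genes can be compared with each other. Footprints are ribosome-protected fragments of 18 to 34 nt. Depth recovered from the low values was 24.3 to 32.2 M reads for RNA-seq, 21.3 to 46.9 M for footprints of starved cells and 49 to 81.3 M for footprints of cells with methionine. DIM1 mRNA lay between 15.8 and 18.1 RPKM in the 6 starved libraries and between 77.4 and 92.1 RPKM in the 6 with methionine, which says nothing about the substitutions. The 6 a-cell marker genes summed to 710 to 1296 RPKM of mRNA in every library, against 7.18 to 27.8 RPKM for 4 alpha-cell markers, of which 3 stayed under 5 RPKM throughout. A gene was tested when its mean over all 24 libraries was at least 5 RPKM, which 5142 genes and 5 of the 7 members passed. FIT1 averaged 2.652 RPKM and ARN2 was listed at 0 in every library, so neither was tested. FIT3 met that minimum in 10 of 12 group means, while FIT2, ARN1, SIT1 and ENB1 met it in 12 of 12. "Called" means an adjusted p below 0.05 in limma's test on log2(RPKM + 1), adjusted over all genes tested by the Benjamini-Hochberg method. In bulk samples of this kind, fewer cells with a transcript and less RNA per cell cannot be told apart.

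The mannoprotein genes FIT2 and FIT3 carried little mRNA with methionine and rose steeply on starvation in D87E and WT, and far less in E85Q. FIT2 mRNA in starved cells was 40.8 and 35.3 RPKM in the E85Q isolates, 888 and 1103 RPKM in D87E, and 1249 and 1339 RPKM in WT. With methionine it was 8.02 and 7 RPKM in E85Q, 9.02 and 10.2 RPKM in D87E, and 10.9 and 10.7 RPKM in WT. The starved E85Q libraries therefore stood above all libraries with methionine, yet far below the starved libraries of both other genotypes. As ratios of group means, starved FIT2 mRNA was 5.06 times the level with methionine in E85Q, 103.3 times in D87E and 119.9 times in WT. FIT3, the neighbouring gene on the chromosome, had much the same profile: its mRNA in starved cells was 41.9 and 34.0 RPKM in E85Q, 630 and 741 RPKM in D87E, and 930 and 1068 RPKM in WT. With methionine FIT3 mRNA was 7.81 and 6.93 RPKM in E85Q, 7.67 and 9.24 RPKM in D87E, and 9.78 and 11.5 RPKM in WT. The corresponding ratios of starved cells to cells with methionine were 5.15 in E85Q, 81.1 in D87E and 93.8 in WT.

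**Figure D1:**
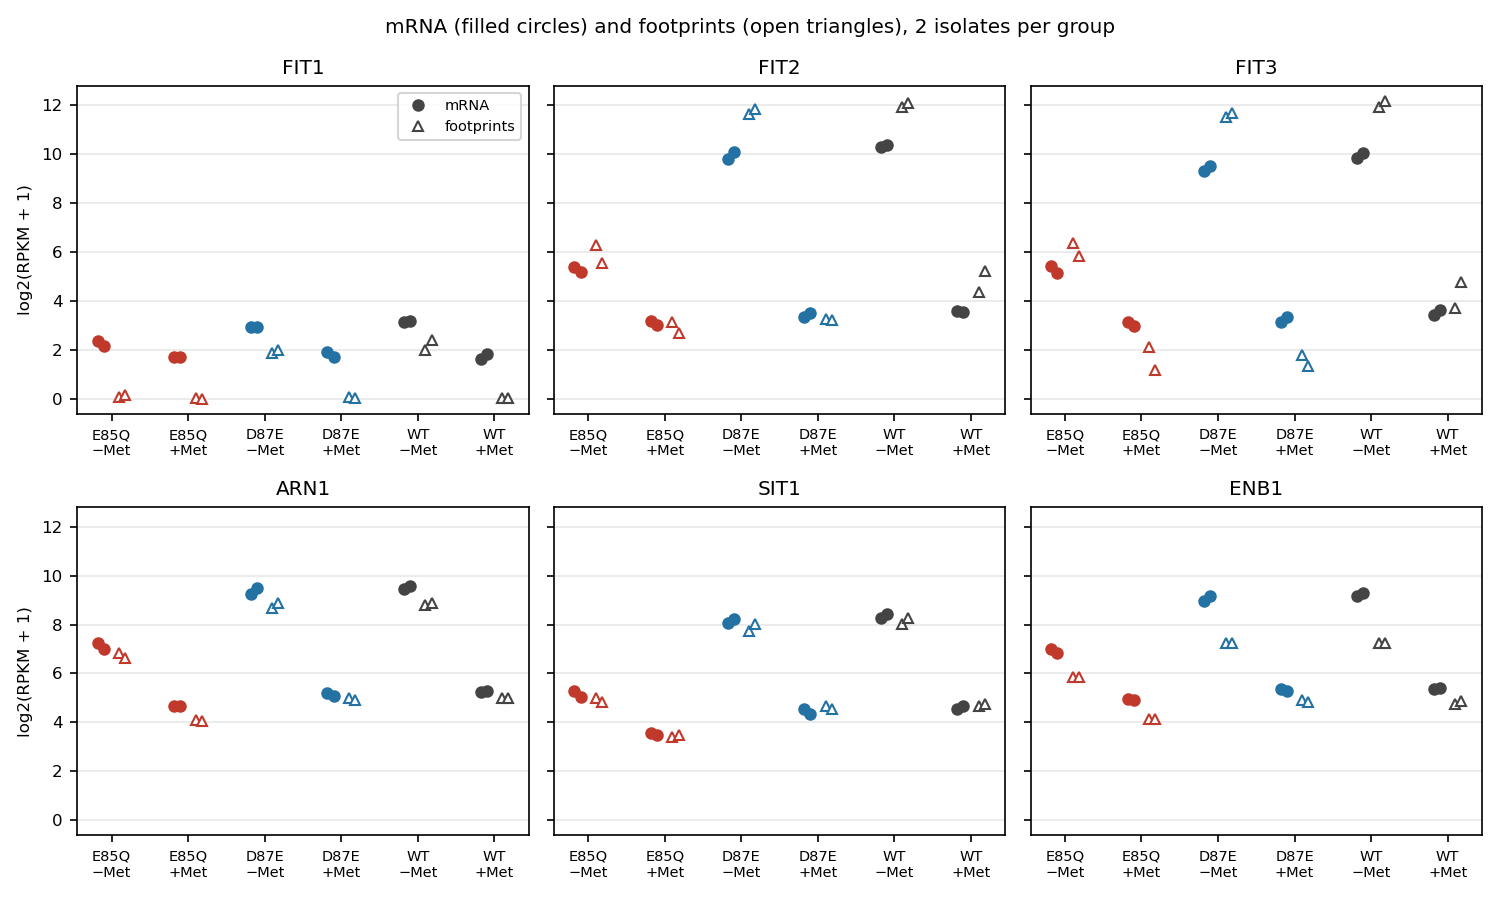
Level of 6 members in every sample, as log2(RPKM + 1), for mRNA (filled circles) and footprints (open triangles); E85Q is red, D87E blue and WT grey, and each group has 2 isolates. Starved (−Met) D87E and WT samples stood highest for each of FIT2, FIT3, ARN1, SIT1 and ENB1, and starved E85Q samples lay between them and the samples with methionine (+Met).

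The genes of the 3 tested transporters had more mRNA than FIT2 and FIT3 with methionine in all 3 genotypes and, in D87E and WT, rose by less on starvation. ARN1 mRNA in starved cells was 152 and 126 RPKM in E85Q, 604 and 718 RPKM in D87E, and 705 and 770 RPKM in WT. With methionine ARN1 mRNA was 24.3 RPKM in both E85Q isolates, 35.4 and 33.2 RPKM in D87E, and 37.3 and 37.8 RPKM in WT. ARN1 thus had the highest mean mRNA of the members in starved E85Q cells, at 139 RPKM, although its range there overlapped that of ENB1. ENB1 mRNA in starved cells was 127 and 115 RPKM in E85Q, 496 and 579 RPKM in D87E, and 571 and 631 RPKM in WT. With methionine ENB1 mRNA was 30.0 and 29.1 RPKM in E85Q, 39.9 and 38.3 RPKM in D87E, and 40.7 and 41.6 RPKM in WT, the highest mean of the members in each of the 3 genotypes. For ARN1 and ENB1 the E85Q values lay below all D87E and WT values in both media.

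SIT1 had the lowest mean mRNA of the 3 tested transporters in each group. Its mRNA in starved cells was 38.0 and 32.0 RPKM in E85Q, 265 and 300 RPKM in D87E, and 308 and 348 RPKM in WT. With methionine SIT1 mRNA was 10.9 and 10.3 RPKM in E85Q, 22.1 and 19.4 RPKM in D87E, and 22.5 and 24.1 RPKM in WT. E85Q again lay below both other genotypes in both media. The starved level was 3.3 times that with methionine in E85Q, 13.6 times in D87E and 14.1 times in WT, a smaller ratio than for ARN1 (5.72, 19.3 and 19.7 times in E85Q, D87E and WT) or ENB1 (4.09, 13.8 and 14.6 times).

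Starvation changed the order of the members by level. With methionine the order from the highest mean mRNA to the lowest was ENB1, ARN1, SIT1, FIT2, FIT3 and FIT1 in all 3 genotypes, and the ranges of FIT2 and FIT3 overlapped in each. In starved WT cells the order was FIT2 (1294 RPKM), FIT3 (999), ARN1 (737), ENB1 (601), SIT1 (328) and FIT1 (7.94), with no overlap between neighbours. In starved D87E cells the order was the same, but FIT3 (686 RPKM) overlapped ARN1 (661). In starved E85Q cells the mannoprotein genes did not reach the top: ARN1 (139 RPKM) and ENB1 (121) stood above FIT2 (38), FIT3 (37.9) and SIT1 (35), and the last 3 overlapped. FIT2 and FIT3 together made up 0.0117% to 0.014% of all mRNA RPKM in starved E85Q cells, 0.261% to 0.323% in D87E and 0.378% to 0.423% in WT.

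The rise of mRNA on starvation was called for all 5 tested members in each genotype. Among all genes tested, 47.3% were called up in E85Q, 61.7% in D87E and 61.3% in WT, so a call by itself sets the members little apart. Their sizes differ more: the median change of all genes was 0.15 in E85Q, 0.44 in D87E and 0.43 in WT on the log2 scale, while FIT2 rose by 2.20, 6.54 and 6.78 (SE 0.11 each) and FIT3 by 2.21, 6.18 and 6.42 (SE 0.13 each) in the same order of genotypes. ARN1 rose by 2.46, 4.23 and 4.26 (SE 0.10 each) in E85Q, D87E and WT. ENB1 rose by 1.99, 3.74 and 3.83 (SE 0.08 each), and SIT1 by 1.63, 3.71 and 3.76 (SE 0.10 each). The largest adjusted p of these 15 tests by limma was 1.7e-07. In WT, FIT2 held rank 24 and SIT1 rank 78 from the highest of the 5142 genes, with the other 3 tested members between them, while in E85Q the members held ranks 96 (ARN1) to 194 (SIT1). When each library was centred on its median gene, 49.7% of the called genes were up in D87E instead of 71.6%, and 49.4% in WT instead of 70.6%; the 5 members were called up there as well.

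**Figure D2:**
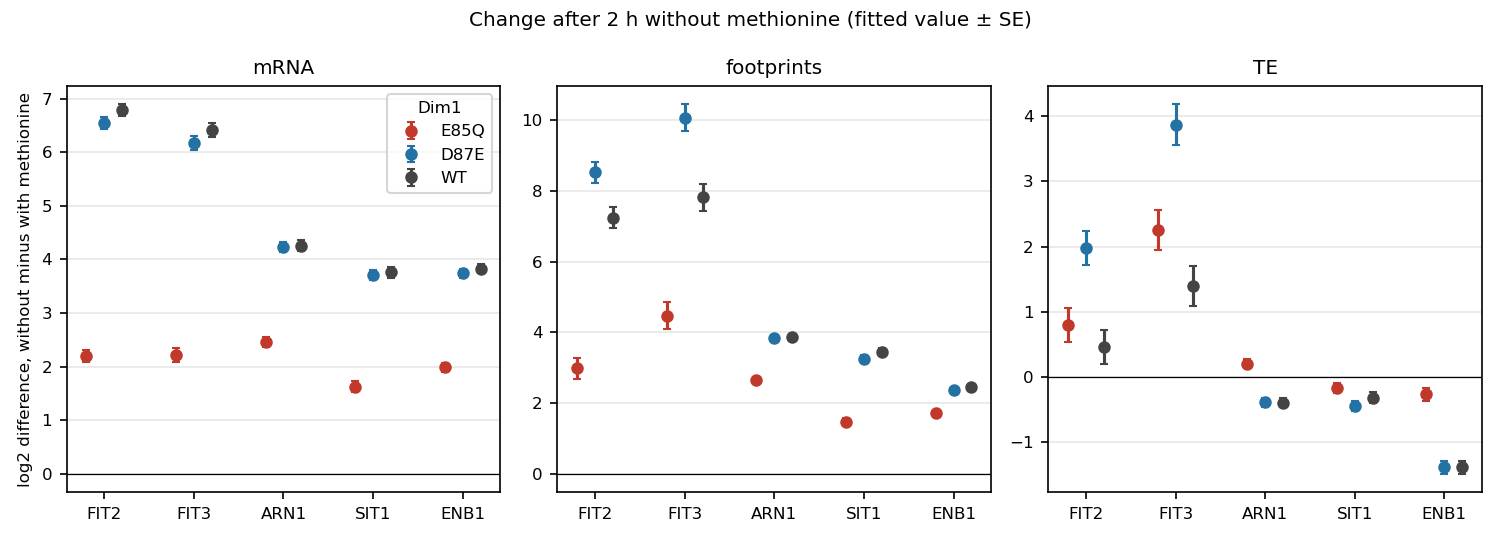
Fitted change after 2 h without methionine (log2 difference, starved minus with methionine, ± SE from limma) of mRNA, footprints and TE for the 5 tested members in E85Q, D87E and WT (2 isolates each). The mRNA change of FIT2 is 2.20 in E85Q, against 6.54 in D87E and 6.78 in WT, and the TE panel shows ENB1 at −1.39 in D87E and WT.

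The response itself differed between E85Q and WT for all 5 tested members. The starvation response of mRNA in E85Q minus that in WT was −4.58 for FIT2 (SE 0.16), −4.21 for FIT3 (SE 0.19), −2.13 for SIT1 (SE 0.14), −1.84 for ENB1 (SE 0.12) and −1.80 for ARN1 (SE 0.14). All were called by limma, with a largest adjusted p of 2.3e-05, where 49.6% of genes were called down and the median of all genes was −0.30. Against D87E the 5 differences ran from −4.35 (FIT2) to −1.75 (ENB1), all called, where 48.8% of genes were called down and the median was −0.29. D87E and WT were not told apart: limma called none of the 5 members in the D87E minus WT response and 0% of all genes, and no member had an unadjusted p below 0.05, the differences lying between −0.24 (SE 0.19, FIT3) and −0.03 (SE 0.14, ARN1). With centring, 59.5% of the called genes were up in E85Q minus WT instead of 18.6%, and 60% in E85Q minus D87E instead of 16.4%, and the 5 members remained called down.

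Set against WT in the same medium, E85Q cells had less mRNA of every tested member both starved and with methionine. In starved cells FIT2 mRNA in E85Q was 2.94% of the WT level, FIT3 3.8%, SIT1 10.7%, ARN1 18.8% and ENB1 20.1%. The fitted differences were −5.06 for FIT2 (SE 0.11), −4.69 for FIT3 (SE 0.13), −3.19 for SIT1 (SE 0.10), −2.40 for ARN1 (SE 0.10) and −2.30 for ENB1 (SE 0.08), and limma called all 5, with a largest adjusted p of 1.9e-07. In that comparison 47% of genes were called down and the median difference was −0.18, and FIT2 and FIT3 held the last ranks from the highest, 5142 and 5141 of 5142. The share of called genes that were up was 24.3%, or 56.1% with centring.

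With methionine the E85Q deficit was smaller and less stable. FIT2 mRNA in E85Q was 69.6% of the WT level, FIT3 69.2%, ENB1 71.7%, ARN1 64.8% and SIT1 45.5%. The fitted differences were −1.07 for SIT1 (SE 0.10, adjusted p = 0.00051 by limma), −0.61 for ARN1 (SE 0.10, adjusted p = 0.0052) and −0.47 for each of ENB1, FIT2 and FIT3 (SE 0.08, 0.11 and 0.13, adjusted p = 0.0068, 0.015 and 0.027). All 5 were called down, where 6.07% of genes were and the median of all genes was 0.11. With centring, 31% of the called genes were up instead of 78.1%. Without the E85Q library of isolate 623 with methionine 2 members, ARN1 and SIT1, stayed called, and without that of E85Q isolate 625 or WT isolate 600 the calls of FIT2 and FIT3 were lost. FIT3 was also not called with a pseudocount of 5 (−0.34, adjusted p = 0.051) or without the filter (−0.47, adjusted p = 0.057).

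In D87E the mRNA of the 5 members was 68.6% (FIT3) to 89.7% (ARN1) of the WT level in starved cells and 79.4% (FIT3) to 94.9% (ENB1) with methionine. None was called by limma in either medium, nor was any gene (0% in both). At an unadjusted p below 0.05 there were 2 members in starved cells, FIT3 (−0.54, SE 0.13, adjusted p = 0.6) and FIT2 (−0.39, SE 0.11, adjusted p = 0.6), and 1 with methionine, FIT3 (−0.30, SE 0.13, adjusted p = 0.97). Without the starved D87E library of isolate 888, FIT2 (−0.54, adjusted p = 0.03) and FIT3 (−0.66, adjusted p = 0.041) were called down.

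Footprints of FIT2 and FIT3 stood far above their mRNA in starved D87E and WT cells, whereas those of the tested transporters lay below theirs. FIT2 footprints in starved cells were 78.0 and 45.4 RPKM in E85Q, 3241 and 3714 RPKM in D87E, and 3952 and 4382 RPKM in WT. With methionine they were 7.88 and 5.52 RPKM in E85Q, 8.58 and 8.29 RPKM in D87E, and 19.3 and 36.6 RPKM in WT. The WT libraries with methionine thus differed from each other and stood above the other genotypes. FIT3 footprints in starved cells were 81.9 and 56.4 RPKM in E85Q, 2920 and 3309 RPKM in D87E, and 3902 and 4650 RPKM in WT. With methionine FIT3 footprints were 3.36 and 1.24 RPKM in E85Q, 2.41 and 1.5 RPKM in D87E, and 12.1 and 26.3 RPKM in WT. FIT2 and FIT3 together took 0.013% to 0.0186% of all footprint RPKM in starved E85Q cells, 0.717% to 0.823% in D87E and 0.888% to 1.05% in WT.

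Among the 3 tested transporters, footprints of ARN1 and SIT1 followed their mRNA more closely. Those of ENB1 lay well below its mRNA in starved D87E and WT cells. ARN1 footprints in starved cells were 115 and 98.5 RPKM in E85Q, 412 and 468 RPKM in D87E, and 445 and 477 RPKM in WT. With methionine ARN1 footprints were 16.3 and 15.7 RPKM in E85Q, 30.6 and 29.2 RPKM in D87E, and 30.8 and 30.9 RPKM in WT. D87E and WT overlapped in starved cells, and E85Q lay below both in either medium. SIT1 footprints in starved cells were 30.5 and 27.8 RPKM in E85Q, 213 and 258 RPKM in D87E, and 261 and 311 RPKM in WT. With methionine SIT1 footprints were 9.71 and 10.2 RPKM in E85Q, 24.6 and 22.5 RPKM in D87E, and 24.8 and 26.1 RPKM in WT. The E85Q samples again formed the lowest group, starved or not. ENB1 footprints in starved cells were 57.6 and 56.4 RPKM in E85Q, 150 and 149 RPKM in D87E, and 153 RPKM in both WT isolates. With methionine ENB1 footprints were 16.6 and 16.4 RPKM in E85Q, 29.3 and 27.6 RPKM in D87E, and 25.9 and 28.7 RPKM in WT. ENB1 therefore had the lowest footprint level of the 3 in starved D87E and WT cells, although its mRNA there exceeded that of SIT1.

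Limma called the footprints of all 5 tested members up on starvation in each genotype, where 44.5% of genes were called up in E85Q, 47.1% in D87E and 51.1% in WT. In WT 62.2% of the called genes were up, or 50.1% with centring. FIT3 footprints rose by 4.47 in E85Q, 10.06 in D87E and 7.82 in WT (SE 0.38 each), and FIT2 footprints by 2.99, 8.52 and 7.24 (SE 0.30 each). The transporters rose by 1.46 (SIT1) to 2.66 (ARN1) in E85Q, 2.36 (ENB1) to 3.83 (ARN1) in D87E and 2.45 (ENB1) to 3.86 (ARN1) in WT. The footprint response in E85Q minus WT was called down for all 5, from −4.24 (FIT2, SE 0.43) to −0.72 (ENB1, SE 0.08), where 26.5% of genes were called down, and in E85Q minus D87E from −5.59 (FIT3, SE 0.54) to −0.63 (ENB1, SE 0.08), where 17.7% were. With centring, 61.9% of the called genes were up in E85Q minus WT instead of 33%, and 61.2% in E85Q minus D87E instead of 47.4%. For D87E minus WT limma called none of the 5 and 0% of all genes, while FIT2 (1.29, SE 0.43) and FIT3 (2.24, SE 0.54) were the 2 members with an unadjusted p below 0.05 (adjusted p = 0.35 and 0.28).

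In starved cells the E85Q footprints of FIT2 were 1.48% of the WT level and those of FIT3 1.62%, against 10.2% for SIT1, 23.2% for ARN1 and 37.2% for ENB1. All 5 were called down by limma, from −6.10 (FIT2, SE 0.30) to −1.41 (ENB1, SE 0.06), where 32% of genes were called down; 38.6% of the called genes were up, or 59.3% with centring. With methionine all 5 were also called down in E85Q against WT, where 3.54% of genes were: FIT3 by −2.60 (SE 0.38, adjusted p = 0.0089), FIT2 by −1.86 (SE 0.30, adjusted p = 0.012), SIT1 by −1.27 (SE 0.11), ARN1 by −0.90 (SE 0.09) and ENB1 by −0.69 (SE 0.06). There 53.3% of the called genes were up, or 26.5% with centring. Without the WT library of isolate 600 with methionine, FIT3 (−2.07, adjusted p = 0.053) and FIT2 (−1.41, adjusted p = 0.074) were not called, and FIT2 was not called without the E85Q library of 623 (adjusted p = 0.051) or 625 (adjusted p = 0.073) either. Between D87E and WT limma called none of the 5 and 0% of all genes in either medium. At an unadjusted p below 0.05 there was 1 member in starved cells, SIT1 (−0.28, SE 0.11, adjusted p = 0.28), and there were 2 with methionine, FIT3 (−2.69, SE 0.38, adjusted p = 0.096) and FIT2 (−1.55, SE 0.30, adjusted p = 0.32). Without the starved D87E library of isolate 888, SIT1 was called (−0.42). Centring, or leaving out the WT library of isolate 172 with methionine, made FIT3 a called member there (−2.72, adjusted p = 0.041, and −3.22, adjusted p = 0.034).

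The low footprint values of FIT2 and FIT3 with methionine were set beside those of other genes that starvation induced strongly. Of the 20 other genes with the largest mRNA rise in WT, 17 had at least 100 RPKM of footprints in every starved library, among them the sulfate permease gene SUL1 and the sulfur assimilation gene MET3. Their footprints with methionine, as a percentage of the footprints in the starved library of the same isolate, had a median of 0.677% in E85Q 623, 1.42% in E85Q 625, 0.168% in D87E 887, 0.107% in D87E 888, 0.349% in WT 172 and 0.68% in WT 600. The lowest of the 17 was 0.281% in WT 172 and 0.527% in WT 600, and FIT3 lay just above it there, at 0.31% and 0.566%. FIT2 was at 0.487% and 0.835% in the same isolates, inside the range of the 17 genes. In D87E, FIT3 was at 0.0826% and 0.0455% and FIT2 at 0.265% and 0.223%, again inside the range. In E85Q, FIT2 (10.1% and 12.2%) and FIT3 (4.1% and 2.19%) lay above all 17. However, starved E85Q footprints of FIT2 (78.0 and 45.4 RPKM) and FIT3 (81.9 and 56.4 RPKM) did not reach the 100 RPKM required of the 17. The ratio divides by starved footprints, so that requirement by itself favours lower ratios among the 17. No conclusion is drawn from the positions in E85Q. Per the labels' protocols, barcoded footprint samples were pooled after ligation whenever possible; the part of reads exchanged between pooled samples in these values, and in the TE values made from them, was not tested.

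**Figure D3:**
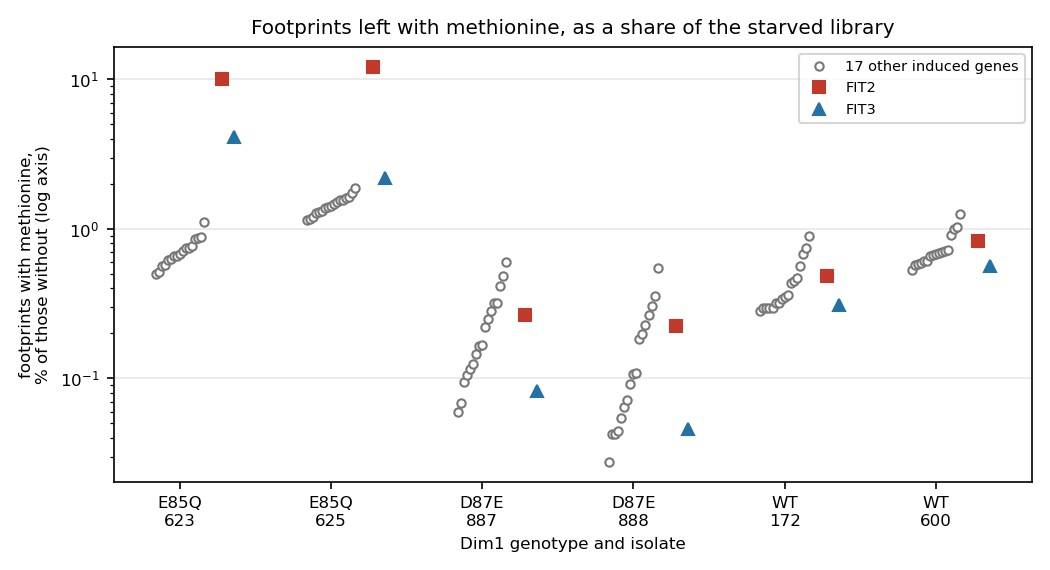
Footprints with methionine as a percentage of the footprints without methionine in the same isolate (log axis), for 17 other strongly induced genes (open circles, drawn in order of their value), FIT2 (red squares) and FIT3 (blue triangles). In D87E and WT both genes lie within the spread of the other genes, and in E85Q both lie above it. The other genes were required to have at least 100 RPKM of starved footprints in every library, which FIT2 and FIT3 did not reach in E85Q.

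As an alternative chosen after seeing the data, the lowest of these ratios in each isolate, times the starved footprints, was subtracted from the footprints with methionine. The difference in FIT3 footprints between E85Q and WT with methionine was then 0.04 (adjusted p = 0.96) and that in FIT2 −0.69 (adjusted p = 0.16), so the calls of both ended there, and 3 of the 5 members were called. FIT3 in D87E against WT with methionine was −0.57 (adjusted p = 1). The starved comparisons of E85Q with WT stayed at −6.10 for FIT2 and −5.95 for FIT3, since the starved libraries were left as they were. FIT3 in WT lay at 0.31% and 0.566%, just above the 0.281% and 0.527% subtracted there. Most of its WT footprints with methionine were therefore bound to go. FIT2 footprints in WT with methionine went from 19.3 and 36.6 RPKM to 8.14 and 13.5 RPKM. FIT2 and FIT3 results after subtraction that use these WT libraries, here and below, follow largely from the ratio taken off. Their adjusted p-values take that ratio as known, and they do not test exchange of reads.

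Translational efficiency (TE) is the log2 footprint level minus the log2 mRNA level in each sample. In starved cells it set FIT2 and FIT3 apart from the tested transporters, though other wall mannoproteins, described below, also had footprints well above their mRNA. FIT1, which was not tested, did not share the high starved level of FIT2 and FIT3. Its TE in starved cells was −2.26 and −1.97 in E85Q, −1.06 and −0.94 in D87E, and −1.15 and −0.81 in WT. These values lay below those of ARN1 and SIT1 in each genotype. In limma's fit without the filter FIT1 TE rose on starvation by 0.76 in D87E and 0.71 in WT (adjusted p = 0.0028 and 0.0051). It was at −0.44 in E85Q (adjusted p = 0.11, not called). That fit called up 10.2% of genes in D87E, 13.1% in WT and 2.11% in E85Q. FIT1 TE in starved E85Q minus WT was −1.13 (adjusted p = 0.0024). There 29.7% of genes were called in either direction and 21.1% up. At such low levels TE depends on the pseudocount. FIT3 TE in starved cells was 0.95 and 0.71 in E85Q, 2.21 and 2.16 in D87E, and 2.07 and 2.12 in WT. With methionine it was −1.02 and −1.83 in E85Q, −1.35 and −2.03 in D87E, and 0.28 and 1.13 in WT, with the WT samples above 0; with the ratio subtracted as above, FIT3 footprints with methionine were 1.11 and 1.81 RPKM in WT, below the mRNA level. FIT2 TE in starved cells was 0.92 and 0.36 in E85Q, 1.87 and 1.75 in D87E, and 1.66 and 1.71 in WT. With methionine FIT2 TE was −0.02 and −0.29 in E85Q, −0.07 and −0.28 in D87E, and 0.77 and 1.68 in WT. Among all genes tested, mean FIT3 TE in starved cells stood at percentile 92.0 in E85Q, 98.9 in D87E and 98.7 in WT, and FIT2 TE at 86.9, 97.8 and 97.2.

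ENB1 lay at the other end of the scale. Its TE in starved cells was −1.13 and −1.01 in E85Q, −1.72 and −1.95 in D87E, and −1.90 and −2.04 in WT, and with methionine −0.81 and −0.79 in E85Q, −0.43 and −0.46 in D87E, and −0.63 and −0.52 in WT. Its starved mean was at percentile 11 in E85Q, 6.4 in D87E and 5.0 in WT. ARN1 TE in starved cells was −0.40 and −0.35 in E85Q, −0.55 and −0.62 in D87E, and −0.66 and −0.69 in WT, and with methionine −0.55 and −0.60 in E85Q, −0.20 and −0.18 in D87E, and −0.27 and −0.28 in WT. The order of the media in ARN1 was thus opposite in E85Q to that in D87E and WT. SIT1 TE stayed near the median gene, between −0.32 and −0.16 in the 6 starved samples and between −0.15 and 0.21 in the 6 with methionine.

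**Figure D4:**
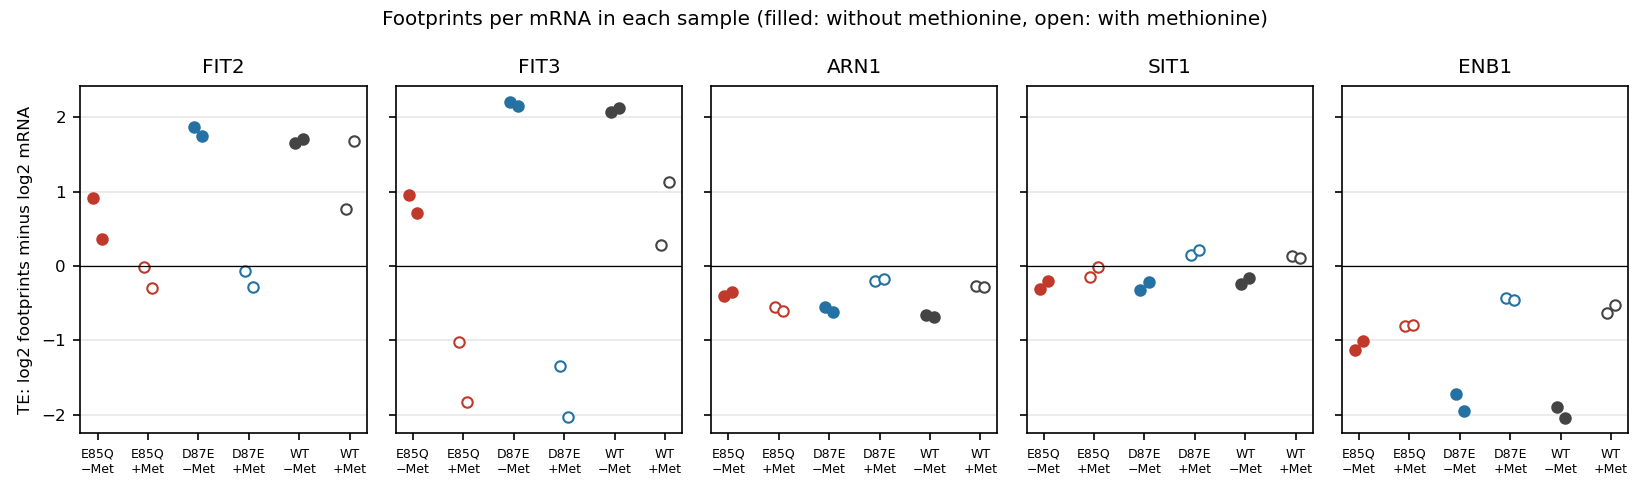
TE (log2 footprints minus log2 mRNA, both on the RPKM + 1 scale) of the 5 tested members in each sample, filled for starved (−Met) and open for methionine (+Met), with E85Q red, D87E blue and WT grey. Starved D87E and WT samples lie between 1.66 and 2.21 for FIT2 and FIT3 and between −2.04 and −1.72 for ENB1.

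On starvation, limma called FIT3 TE up in all 3 genotypes, by 2.25 in E85Q (adjusted p = 0.0018), 3.87 in D87E (adjusted p = 6e-06) and 1.39 in WT (adjusted p = 0.0035; SE 0.31 each). FIT2 TE was called up in D87E by 1.98 (SE 0.26, adjusted p = 0.0001), while the values of 0.80 in E85Q (adjusted p = 0.093) and 0.46 in WT (adjusted p = 0.15) were not called. Thus 1 member was called up in E85Q, 2 in D87E and 1 in WT, where 2.18%, 12.6% and 16.1% of genes were called up in these genotypes. The 3 transporters were called down in D87E and WT, where 48.9% and 37.8% of genes were. ENB1 TE fell by 1.39 on the log2 scale in both (SE 0.10), ARN1 by 0.39 in D87E and 0.40 in WT (SE 0.07), and SIT1 by 0.45 in D87E and 0.32 in WT (SE 0.08). No transporter was called in E85Q, where 4.86% of genes were called down: ARN1 was at 0.20 (adjusted p = 0.1), SIT1 at −0.17 (adjusted p = 0.22) and ENB1 at −0.27 (adjusted p = 0.12). The median TE change of all genes was −0.01 in E85Q, −0.25 in D87E and −0.14 in WT. With centring, the calls of ARN1 (−0.09) and SIT1 (−0.14) in D87E and of SIT1 (−0.11) in WT ended, and the share of called genes that were up was 52.6% in E85Q instead of 30.9%, 57.2% in D87E instead of 20.5% and 59.2% in WT instead of 29.8%. The FIT2 change in WT was called with centring (0.67, adjusted p = 0.043), with a pseudocount of 5 (0.67, adjusted p = 0.019) and without the WT library of isolate 600 with methionine (0.91, adjusted p = 0.0073). With the ratio subtracted as above, the FIT2 change was 0.89 in E85Q (adjusted p = 0.034) and 1.72 in WT (adjusted p = 0.00012), and the FIT3 change in WT was 4.35 (adjusted p = 1.8e-06).

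The drop of ENB1 and ARN1 TE differed by genotype. The TE response in E85Q minus WT was 1.12 for ENB1 (SE 0.14, adjusted p = 0.0021 by limma) and 0.60 for ARN1 (SE 0.09, adjusted p = 0.0052), the 2 members called, where 18.1% of genes were called up and the median was 0.14; 81.2% of the called genes were up, or 47.3% with centring. SIT1 (0.15), FIT2 (0.34) and FIT3 (0.86, adjusted p = 0.17) were not called, and FIT3 was at −1.78 (adjusted p = 0.012) with the ratio subtracted. Against D87E, ENB1 (1.12) and ARN1 (0.59) were called up, where 33.7% of genes were, and FIT2 (−1.18, adjusted p = 0.027) and FIT3 (−1.62, adjusted p = 0.017) down, where 4.3% were; here 88.7% of the called genes were up, or 46.8% with centring. The FIT2 and FIT3 calls against D87E were lost without the starved E85Q library of isolate 625 and without the libraries with methionine of E85Q 623 or D87E 888; the FIT2 call was lost also without the filter (adjusted p = 0.066) and without the starved D87E library of 887 (adjusted p = 0.068) or 888 (adjusted p = 0.052). The D87E minus WT response held no called member by limma and 0% of all genes; FIT2 (1.52, adjusted p = 0.37) and FIT3 (2.48, adjusted p = 0.22) were the 2 members with an unadjusted p below 0.05, and both were called without the WT library of isolate 172 with methionine (1.97 and 2.90, adjusted p = 0.035 each).

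Within starved cells, FIT2 TE in E85Q minus WT was −1.05 (SE 0.26, adjusted p = 0.011) and FIT3 TE −1.26 (SE 0.31, adjusted p = 0.011), while ENB1 was at 0.90 (SE 0.10, adjusted p = 0.00035) and ARN1 at 0.30 (SE 0.07, adjusted p = 0.0067). These 4 were called by limma, 2 in each direction, where 11.5% of genes were called down and 24.7% up; SIT1 (−0.05) was not. Of the called genes 68.2% were up, or 47.6% with centring. Without the starved E85Q library of isolate 625, FIT2 (−0.77, adjusted p = 0.1) and FIT3 (−1.14, adjusted p = 0.079) were no longer called. With methionine limma called no member in E85Q against WT, where 0.0389% of genes were called, although all 5 had an unadjusted p below 0.05; FIT3 was at −2.12 (adjusted p = 0.055) and FIT2 at −1.38 (adjusted p = 0.081). Without the WT library of isolate 172 with methionine, both FIT2 (−1.84, adjusted p = 0.01) and FIT3 (−2.55, adjusted p = 0.015) were called, and FIT3 was without E85Q 623 (−2.53, adjusted p = 0.046). With centring, FIT3 was called there (−2.05, adjusted p = 0.049) and 25% of the called genes were up instead of 0%. In D87E against WT with methionine, FIT3 (−2.39, SE 0.31, adjusted p = 0.015) was 1 of the 7 genes called, 0.136% of those tested, and it was at −0.27 (adjusted p = 1) with the ratio subtracted. That call was lost without D87E 888 (−2.05, adjusted p = 0.17) or WT 600 (−1.97, adjusted p = 0.11) with methionine, and without WT 172 FIT2 was called too (−1.85, adjusted p = 0.0036). In starved cells no member was called between D87E and WT (0.0194% of genes were), the values lay between −0.07 and 0.13, and none had an unadjusted p below 0.05.

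FIT1, the third mannoprotein gene, was expressed far below the other 2. Its mRNA in starved cells was 4.06 and 3.39 RPKM in E85Q, 6.67 and 6.56 RPKM in D87E, and 7.75 and 8.14 RPKM in WT. With methionine it was 2.24 and 2.22 RPKM in E85Q, 2.71 and 2.25 RPKM in D87E, and 2.1 and 2.5 RPKM in WT. Every starved library stood above every library with methionine, by 1.67 times in E85Q, 2.67 times in D87E and 3.45 times in WT as ratios of group means. In limma's fit without the filter, FIT1 mRNA rose by 0.55 in E85Q (adjusted p = 0.0013), 1.13 in D87E (adjusted p = 1.3e-05) and 1.44 in WT (adjusted p = 3.5e-06), and the response in E85Q minus WT was −0.89 (adjusted p = 0.0015). That fit called up 41.5%, 56.7% and 56.2% of 6304 genes in these genotypes, so a call by itself sets FIT1 little apart. For the response in E85Q minus WT it called 51.7% of genes in either direction and 9.3% up, so most of these calls were down, like that of FIT1. FIT1 footprints were whole multiples of a read to within 0.004 for a counted length of 889 bases, against a RefSeq gene length of 1587 bases, so part of the gene was left out of the counting; the counted lengths of FIT2 and FIT3 were not recovered, and which positions were masked is not stated. They amounted to 7 reads in the starved E85Q libraries together, 122 in D87E and 150 in WT, and to 1, 3 and 2 reads in the same genotypes with methionine. Relative to library depth, the starved level was 8.28 times that with methionine in E85Q (95% exact interval 1.06 to 373), 124 times in D87E (41.3 to 608) and 177 times in WT (48.3 to 1479); these intervals cover counting error only. In limma's fit without the filter, FIT1 footprints rose by 1.90 in D87E and 2.15 in WT (adjusted p = 6.3e-06 and 3.8e-06) and were at 0.11 in E85Q (adjusted p = 0.48, not called). There 41.1% of genes were called up in D87E, 44.1% in WT and 37.7% in E85Q.

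ARN2 was listed at 0 in all 24 libraries, where 3 reads would have given at most 0.068 RPKM of mRNA and 0.077 RPKM of footprints. These floors take 1830 of its bases as counted, but its counted length was not recovered and masked positions are not stated. GEX1 and GEX2, near-identical genes of the same transporter family, were listed at 0 as well, and how reads with several matches were treated is not given in the sources used here. Of the 6304 genes, 64 (1.02%) were at 0 throughout, and of 5694 RefSeq protein-coding genes 37 (0.65%) were. Among the 305 RefSeq protein-coding genes within the members' distance of a chromosome end (30.9 kb), 19 (6.23%) were at 0. Along the left end of chromosome VIII, PXP3 and YHL048C-A were at 0 too, while COS8, directly left of ARN2, reached 0.238 RPKM of mRNA and ARN1, on the same arm, 770 RPKM.

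The members share a place near chromosome ends, a feature the choice by name did not use. In the RefSeq annotation of the R64 assembly (sacCer3), FIT2 spans bases 1059531 to 1059992 of chromosome XV and FIT3 bases 1060441 to 1061055, 448 bases apart and on opposite strands. FRE5, a reductase gene of the iron regulon, follows FIT3 at 508 bases, and its mRNA rose by 1.53 in E85Q, 5.37 in D87E and 5.58 in WT; with at most 0.0529 RPKM of mean mRNA with methionine in any genotype, it passed the filter through its starved level, and the size of its change depends on the pseudocount. ENB1 lies at the other end of chromosome XV (19491 to 21311), ARN1 (19088 to 20971) and ARN2 (8351 to 10213) near the left end of VIII, SIT1 (27657 to 29543) near the left end of V, and FIT1 (1503314 to 1504900) near the right end of IV. All 7 lie within 30.9 kb of the outermost annotated base of their chromosome, as do 420 of 6002 protein-coding genes (7%). Of the 201 other tested genes in that zone, 142 (70.6%) were called up in mRNA on starvation of WT, with a median of 0.79, and 114 (56.7%) were called down in starved E85Q against WT, with a median of −0.34. Over all genes 61.3% were called up and 47% down in these comparisons, with medians of 0.43 and −0.18. Of the 6 other tested genes directly beside a member, 4 rose in mRNA on starvation of WT by limma's test: FRE5, AVT2 (1.52) and HPA3 (1.06) on either side of SIT1, and CSS3 (0.94) beside ENB1. HSP31, beside FIT1, fell by 0.30 on the log2 scale, and EFM1, beside ARN1, was at 0.17 (adjusted p = 0.083).

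Other genes of iron uptake and use moved in the same direction as the members, mostly by less. There were 33 such genes in 5 lists (reductive uptake, intracellular iron transport and recycling, iron regulators, iron-sulfur scaffolds and biotin transport in the regulon). The lists were chosen with earlier results of these data known, and 30 of the genes were tested. Of these 30, FRE2, FRE3, FRE5 and LSO1 passed the filter only through their starved levels, which favours a rise. On starvation 25 rose and 1 fell in mRNA in E85Q, 28 rose in D87E and 27 rose in WT, with medians of 0.80, 2 and 2.05, where 47.3%, 61.7% and 61.3% of all genes were called up and their medians were 0.15, 0.44 and 0.43; FRA2, a repressor of Aft1 signalling, was at −0.19 (adjusted p = 0.19) in WT. In starved cells 27 were lower and 2 higher in E85Q than in WT, with a median of −1.28; over all genes 47% were called lower and 15.1% higher there, with a median of −0.18. The 3 with the largest rise in WT were TIS11, which encodes an mRNA-binding protein that promotes decay of mRNAs of iron-using pathways (4.44 in E85Q, 6.33 in D87E, 6.28 in WT), FRE5, and LSO1, a small protein induced by low iron (0.31 in E85Q, adjusted p = 0.46, and 3.85 in D87E and 4.59 in WT), whose mean mRNA with methionine was 0.402, 0.0665 and 0.0626 RPKM in these genotypes. The 3 with the smallest called rise in WT were ATX1, the copper chaperone that supplies the iron oxidase pathway (0.87 in E85Q, 0.75 in D87E, 0.55 in WT), AFT1 itself (0.17 in E85Q, 0.81 in D87E, 0.80 in WT) and CTH1, the paralog of TIS11 (0.14 in E85Q, adjusted p = 0.055, 0.98 in D87E, 0.81 in WT). The 7 tested genes of reductive uptake, the other main route for iron, rose in all 3 genotypes, with medians of 1.06 in E85Q, 2.94 in D87E and 2.80 in WT.

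**Figure D5:**
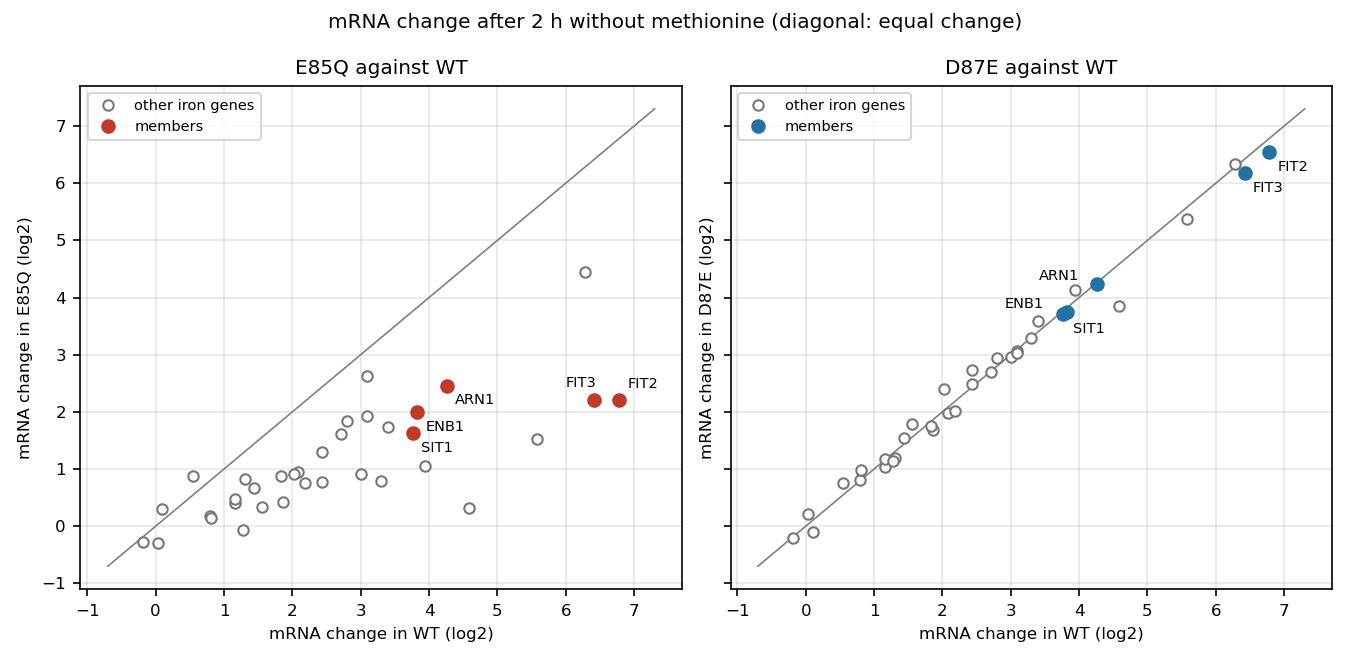
Change of mRNA after 2 h without methionine (log2 difference, fitted by limma) in E85Q (left) and D87E (right) on the vertical axis against that in WT on the horizontal axis, for the 5 tested members (filled) and 30 other tested iron genes (open), with a diagonal of equal change. FIT2 and FIT3 lie farthest right, at 6.78 and 6.42 in WT, at 2.20 and 2.21 in E85Q, and at 6.54 and 6.18 in D87E.

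The iron genes had TE calls in both directions. On starvation of E85Q limma called 0 of the 30 up and 6 down (10 in either direction at an unadjusted p below 0.05), of D87E 4 up and 17 down, and of WT 6 up and 14 down, with medians of −0.03, −0.29 and −0.16. Over all genes, 4.86% were called down in E85Q, and 12.6% were called up and 48.9% down in D87E and 16.1% up and 37.8% down in WT, so that the iron genes' shares in D87E and WT lay near the background.

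Other mannoproteins of the cell wall had mRNA calls in both directions. Of 15 genes for structural or stress-induced wall proteins, 11 were tested. On starvation 6 rose and 1 fell in mRNA in E85Q, 4 rose and 6 fell in D87E, and 4 rose and 5 fell in WT. Their medians were 0.29, −0.49 and −0.31. Among all genes 47.3% were called up in E85Q, 61.7% in D87E and 61.3% in WT. Called down were 29.3% in E85Q, 24.4% in D87E and 25.6% in WT. In TE, limma called 10 of the 11 up in D87E and 9 in WT, with medians of 0.71 and 0.73, where 12.6% and 16.1% of all genes were called up. It called 0 in E85Q, where 2.18% of all genes were called up. The 11 genes had a median of 0.14 there, and 2 had an unadjusted p below 0.05. In starved WT cells footprints of most of the 15 also stood above their mRNA, as those of FIT2 and FIT3 did. Mean footprints and mRNA there were 4415 and 872 RPKM for HSP150, 1107 and 201 RPKM for CCW14, and 232 and 44.8 RPKM for TIP1. TIR2 (1.55 and 6.21 RPKM) and TIR4 (0.0855 and 3.68 RPKM) went the other way.

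Genes with profiles most like the members were sought by the root mean square difference of log2(RPKM + 1) mRNA values, centred per gene, over the 12 RNA-seq libraries. Nearest to the mean profile of FIT1, FIT2 and FIT3 were GTO3 (0.14), FRE5 (0.32), AMF1 (0.34), FRE1 (0.38) and CHA1 (0.52). Nearest to the mean profile of the 4 transporter genes, ARN2 at 0 included, were FET3 (0.14), VMR1 (0.15), CCC2 (0.19), MRS4 (0.24) and TMT1 (0.24). With tested members alone, FRE5 (0.52), GRE1 (0.59) and TIS11 (0.70) came first for the mannoproteins, and AMF1 (0.31), FRE1 (0.33) and GTO3 (0.34) for the transporters. All these profiles span the same contrast of starved cells with cells given methionine.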

How the data were processed

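The authors deposited RPKM values for each library, in 1 table of RNA-seq and 1 of footprints of 18 to 34 nt; positions were masked, per the file names. Tools listed in the submitters' processing notes are TopHat2 2.1.1 and Bowtie 1.1.2, with sacCer3 as the build and no roles. Each table has 7133 entries, of which 829 carry no value. Per the labels' protocols, RNA-seq libraries were stranded and rRNA-depleted, and both assays used the same sample.

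Values were fitted as log2(RPKM + 1), which understates changes of low genes, with limma 3.58.1 (trend) in R 4.3.3 over all 6 groups per measure, for genes with a mean of at least 5 RPKM over 24 libraries. Comparisons were starvation in each genotype, mutant against WT in each medium and differences between starvation responses. Fitting was tested on simulated data. Depth was recovered from whole-read steps, and 63.4% to 82.6% of low values lay within 0.05 of a whole read; no test rests on it, and intervals and floors cover counting error only.

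The members and lists were chosen with earlier results of these data known. Other genes were named by rule: the 3 largest and 3 smallest called mRNA changes of iron genes in starved WT, and the 5 nearest profiles. FRE5 is named also as a neighbour. PXP3, SUL1, MET3, the other wall mannoproteins given by name and further neighbours were chosen after their values were seen. The file names FRA2 the gene that RefSeq calls BOL2. Isolates are the same strain in both media; deviations of the 2 samples of an isolate from their group means correlated at −0.17 to 0.19 across genes in mRNA and −0.041 to 0.39 in footprints. Alternatives were other pseudocounts, no filter, centring, leaving out each sample, the isolate as a block, and the subtraction described with the footprints.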

Additional observations from a re-analysis of the deposited data

Results flagged for a closer look

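The starvation response of a member differed between genotypes, by limma's test of the difference itself, in 26 cases, each with E85Q on one side. In mRNA the response in E85Q minus that in WT was −4.58 for FIT2, −4.21 for FIT3, −1.80 for ARN1, −2.13 for SIT1 and −1.84 for ENB1. In mRNA the response in E85Q minus that in D87E was −4.35 for FIT2, −3.97 for FIT3, −1.76 for ARN1, −2.08 for SIT1 and −1.75 for ENB1. In footprints, E85Q minus WT was −4.24 for FIT2, −3.35 for FIT3, −1.20 for ARN1, −1.98 for SIT1 and −0.72 for ENB1. In footprints, E85Q minus D87E was −5.53 for FIT2, −5.59 for FIT3, −1.17 for ARN1, −1.80 for SIT1 and −0.63 for ENB1. In TE, E85Q minus WT was 0.60 for ARN1 and 1.12 for ENB1, and E85Q minus D87E was −1.18 for FIT2, −1.62 for FIT3, 0.59 for ARN1 and 1.12 for ENB1. All values are log2 differences, and groups of 2 samples are too small for a search for single samples that stand apart.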

How the results depend on the processing

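Of 2590 member values under the alternatives, 2533 kept their direction and their side of the threshold, 32 lost a call, 23 gained one and 2 reversed. Numbers of called members out of 5 are given below, and where no cause follows from the setting, the cause was not tested. With a pseudocount of 5, 2 members were called in TE on starvation of E85Q (1 with a pseudocount of 1) and 1 in TE of E85Q against WT with methionine (0 with a pseudocount of 1), while FIT3 mRNA in E85Q against WT with methionine lost its call, as it did without the filter. Without the filter, 2 were called in TE on starvation of E85Q and 0 in TE of D87E against WT with methionine. With centring, 1 was called in footprints of D87E against WT with methionine, 3 in TE on starvation of D87E and 1 in TE of E85Q against WT with methionine. With the smallest ratio subtracted, 3 were called in footprints of E85Q against WT with methionine, 3 in TE on starvation of E85Q and 0 in TE of D87E against WT with methionine; FIT3 was at 0.04 in E85Q against WT with methionine in footprints, and its TE response in E85Q minus WT at −1.78, both reversed. Leaving out each sample in turn gave 2 to 5 called members in mRNA and 3 to 5 in footprints of E85Q against WT with methionine. For D87E against WT it gave 0 to 2 in mRNA of starved cells, 0 to 1 in footprints of starved cells, 0 to 1 in footprints with methionine and 0 to 2 in TE with methionine. In TE it gave 1 to 2 on starvation of E85Q, 2 to 4 in starved E85Q against WT, 0 to 2 in E85Q against WT with methionine, 0 to 2 for the response in D87E minus WT and 2 to 4 for that in E85Q minus D87E. The isolate as a replicate block could be fitted for starvation and for differences between starvation responses; no call of a member changed in these, and 5 were called in mRNA on starvation of WT as without it (FIT2 at 6.78, SE 0.06). Each group has 2 samples, which limits small differences such as those between D87E and WT, and 3 reads in a gene of 1 kb correspond to 0.037 to 0.14 RPKM.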
